A study of Mus musculus with 5 samples.

Results

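The genes described here encode the protein subunits of the mitochondrial respiratory chain and ATP synthase. They were taken from the deposited table by symbol and biotype, as protein-coding genes whose names begin with mt- or fall in the Nduf, Sdh, Uqcr, Cyc1, Cox and Atp5 subunit families. The rule used no measured value, but it was set with earlier results of these data known. The rule gave 99 of 54532 annotated genes, of which 13 were encoded by mitochondrial DNA and 86 by nuclear chromosomes. The 13 mitochondrially encoded genes comprised 7 of complex I, 1 of complex III, 3 of complex IV and 2 of complex V. The nuclear genes comprised 37 of complex I, 4 of complex II, 9 of complex III, 18 of complex IV and 18 of complex V. Complex was assigned by symbol alone, so Ndufa4 and Ndufa4l2 counted under complex I and Atp5s under complex V.

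RNA came from adipose-derived stem cells, the fibroblast-like stromal cells of fat that can form adipocytes, of wild-type mice on a chow diet. Stromal vascular cells from the subcutaneous (SAT) or visceral (VAT) depot of 30 mice, 12 to 14 weeks old, were stained for CD26 (DPP4) and CD142 (tissue factor, the product of F3). CD31+ endothelial and CD45+ immune cells were gated out in all groups. The labels do not say how the mice were divided among the 5 libraries, whose names end in a number, 1 or 2. By title they are SAT CD26+CD142- (1 library, numbered 1), SAT CD26-CD142+ (1 library, numbered 2), VAT CD26-CD142+ (libraries numbered 1 and 2) and VAT CD26+CD142+ (1 library, numbered 2). Nothing in the labels says that the VAT CD26-CD142+ pair came from separate animals, so the spread between libraries may be technical. The p-values below measure spread between single libraries that also differ in gate, depot or library number. The labels do not say what the number stands for.

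The SAT titles and library names gave opposite gates. SAT library 1 is CD26+CD142- by title and CD142 by name, and SAT library 2 is CD26-CD142+ by title and CD26 by name. Dpp4 was at 6.58 CPM (counts scaled to library size) in SAT library 1 and 1007 CPM in SAT library 2, while F3 was at 618 and 5.32 CPM, so both markers went with the names and against the titles. The SAT libraries are therefore called by number below, and every statement on their gate carries this conflict. In VAT, Dpp4 was at 5.13 and 6.58 CPM in CD26-CD142+ libraries 1 and 2 and 417 CPM in the CD26+CD142+ library, in the direction of the titles. All 8 progenitor markers were detected in every library, with summed levels of 17321 to 36536 CPM. The markers of the cells gated out, Pecam1 and Ptprc, summed to 2.71 to 7.89 CPM. Total counts ran from 21706345 to 25357403 per library.

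The respiratory chain passes electrons from NADH (complex I) and succinate (complex II) through complex III to oxygen at complex IV, and the proton gradient this builds drives ATP synthase (complex V). Mitochondrial DNA encodes core membrane subunits of complexes I, III, IV and V, transcribed as long polycistronic precursors inside the organelle. Complex II and all remaining subunits come from nuclear genes, whose messenger RNAs are translated in the cytosol and whose products are imported. Most accessory subunits are small proteins with short messenger RNAs, whereas several catalytic subunits have longer ones. NRF1, the ETS factor GABP and YY1 are known regulators of nuclear respiratory genes.

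RefSeq promoter windows (GRCm38.p6, 250 bases before to 50 after a gene's start) were matched by symbol for 68 of the 86 nuclear genes. On either strand, the NRF1 motif GCGCANGCG was present in 20 of the 68 (29.4%), against 14.4% of 10418 other tested coding genes and 6.25% of all 32851 windows. The YY1 motif AAGATGGCG was present in 7 (10.3%, against 3.34% and 1.4%), and the ETS motif CCGGAAGT in 5 (7.35%, against 8.71% and 3.89%). The windows in which 2 of these motifs occurred belonged to Ndufs6, Uqcr11 and Atp5h. They are shown because they carry the motifs of known respiratory regulators side by side, with the motif letters in capitals, 5′ to 3′ on the gene's strand. The Ndufs6 window (chr13:73328433-73328732, minus strand) holds NRF1 and YY1 motifs, and those of Uqcr11 (chr10:80406772-80407071, minus strand) and Atp5h (chr11:115419870-115420169, minus strand) hold NRF1 and ETS motifs.
Ndufs6 promoter: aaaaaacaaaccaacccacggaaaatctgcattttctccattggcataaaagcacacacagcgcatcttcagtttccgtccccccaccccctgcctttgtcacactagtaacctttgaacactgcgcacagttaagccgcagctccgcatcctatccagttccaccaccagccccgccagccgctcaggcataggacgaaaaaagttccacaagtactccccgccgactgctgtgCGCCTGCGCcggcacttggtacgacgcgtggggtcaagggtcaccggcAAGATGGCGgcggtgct
Uqcr11 promoter: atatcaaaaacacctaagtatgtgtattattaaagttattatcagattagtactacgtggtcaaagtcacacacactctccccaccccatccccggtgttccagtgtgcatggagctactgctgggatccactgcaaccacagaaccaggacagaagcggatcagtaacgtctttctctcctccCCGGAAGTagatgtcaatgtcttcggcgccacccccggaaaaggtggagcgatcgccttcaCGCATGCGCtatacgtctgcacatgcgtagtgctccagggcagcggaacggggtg
Atp5h promoter: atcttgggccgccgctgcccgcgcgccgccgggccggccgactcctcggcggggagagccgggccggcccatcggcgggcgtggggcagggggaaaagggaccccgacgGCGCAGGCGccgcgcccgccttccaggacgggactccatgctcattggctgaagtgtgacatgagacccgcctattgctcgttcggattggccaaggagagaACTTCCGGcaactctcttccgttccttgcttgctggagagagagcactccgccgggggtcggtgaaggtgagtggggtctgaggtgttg
These matches are descriptions of the letters and not evidence of binding.

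Mitochondrial DNA has near-identical copies in the nuclear genome, and these bear on which reads could be assigned to the mitochondrially encoded genes. Aligning the 99 genes' GENCODE transcripts to all others at 99% identity or more found 7 unprocessed pseudogenes on the minus strand of chromosome 1, between bases 24611535 and 24616197 (mm10). The first 60 bases of mt-Co2 and of its copy Gm28661, and of mt-Nd3 and its copy Gm28438, are shown because a read from either member of such a pair is the same or nearly the same. Capitals mark the base that differs, which over 345 aligned bases is the single substitution T3C, counted from 1 at the first base of mt-Nd3. mt-Co2 and Gm28661 matched at all 681 aligned bases.
mt-Co2, chrM:7013-7072, plus strand: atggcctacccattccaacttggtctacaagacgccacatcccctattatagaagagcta
Gm28661, chr1:24615506-24615565, minus strand: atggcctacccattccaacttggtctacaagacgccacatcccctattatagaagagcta
mt-Nd3, chrM:9459-9518, plus strand: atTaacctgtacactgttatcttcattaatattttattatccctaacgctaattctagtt
Gm28438, chr1:24613060-24613119, minus strand: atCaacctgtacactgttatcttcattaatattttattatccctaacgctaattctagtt

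The 13 mitochondrially encoded genes took a larger share of all counts in both libraries numbered 1 than in the 3 numbered 2. Their share was 2.72% (95% Clopper-Pearson interval 2.72 to 2.73) in SAT library 1. In VAT CD26-CD142+ library 1 it was 4.21% (4.20 to 4.21). It was 0.538% (0.535 to 0.541) in SAT library 2, 0.618% (0.615 to 0.621) in VAT CD26-CD142+ library 2 and 0.604% (0.600 to 0.607) in the VAT CD26+CD142+ library. These intervals cover counting error only, since the reads carry no molecular identifiers. The shares fell into 2 sets by number that did not overlap. Depot differed within each set. Gate differed within the set numbered 2 by title and by name, and within the set numbered 1 by title only.

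The 86 nuclear genes showed the same order on a smaller scale. Their share of counts was 0.742% for SAT library 1 and 0.746% for VAT CD26-CD142+ library 1. It was 0.464%, 0.507% and 0.514% for SAT library 2, VAT CD26-CD142+ library 2 and the VAT CD26+CD142+ library. Mitochondrially encoded counts therefore stood at 3.67 and 5.64 times the nuclear counts in the libraries numbered 1. In those numbered 2 they stood at 1.16, 1.22 and 1.17 times. How reads shared with the chromosome 1 copies were counted is not given in the sources used here. The mitochondrially encoded shares and these ratios are uncertain for that reason. In bulk libraries, fewer cells of a type and less RNA per cell cannot be told apart.

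**Figure D1:**
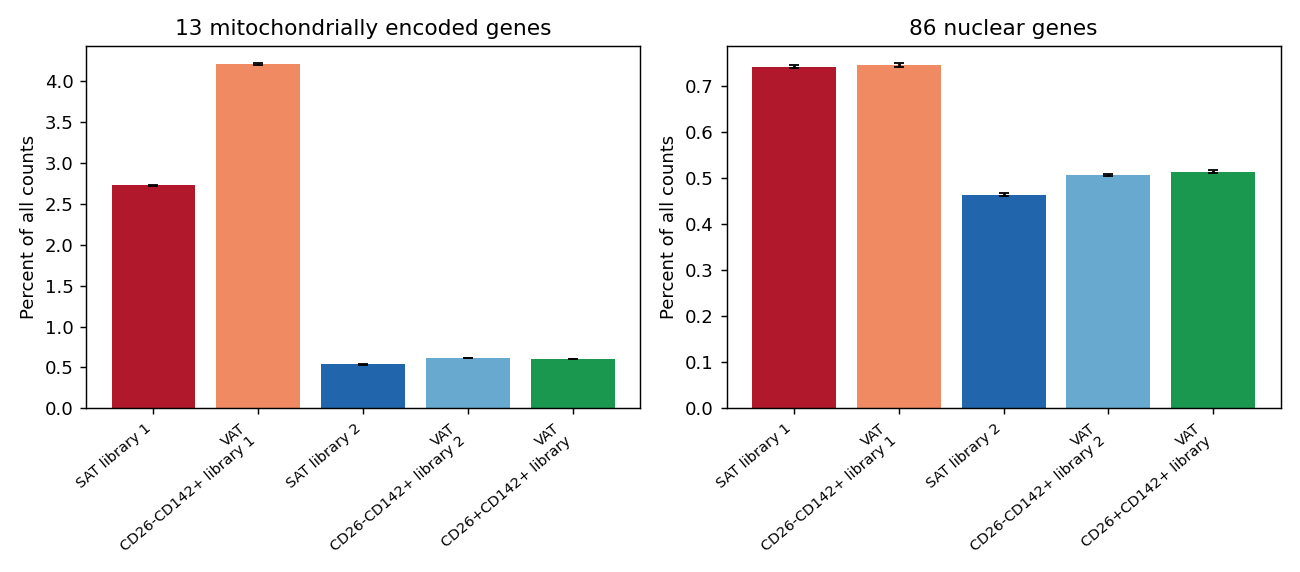
Percent of all counts in each library on the 13 mitochondrially encoded genes (left) and the 86 nuclear subunit genes (right), with 95% Clopper-Pearson intervals. Both libraries numbered 1 stand above the 3 numbered 2 in both panels, at 2.72% and 4.21% against 0.538 to 0.618% on the left.

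Library number was tested across all genes with depot as a term (edgeR quasi-likelihood, 15920 genes past the count filter, Benjamini-Hochberg adjusted p under 0.05, 2 residual degrees of freedom). Of these genes, 837 (5.26%) were called, 347 (2.18%) as higher in the libraries numbered 1 and 490 as lower. Past the filter were 93 of the 99 members, 12 mitochondrially encoded and 81 nuclear. Of them, 11 of 12 and 39 of 81 were called higher, and none lower. The median log2 difference was 2.96 over the 12 mitochondrially encoded genes and 0.88 over the 81 nuclear genes, against 0.00 over all tested genes. Both libraries numbered 1 were above all 3 numbered 2 for 13 of 13 mitochondrially encoded and 74 of 86 nuclear genes, a pattern that 24.2% of all tested genes showed. The number is tied in part to the gate: both libraries numbered 1 are named CD142, and only the VAT CD26-CD142+ pair has 1 gate under both numbers. That pair lies on both sides of this contrast and is no replicate in it. No 2 libraries share depot, gate and number, so the spread in this test comes from libraries that differ in gate or depot.

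The call depended on the libraries in the fit. Without SAT library 1, VAT CD26-CD142+ library 1, SAT library 2 or the VAT CD26+CD142+ library, 0 genes were called, with 2416, 2904, 2371 and 3583 genes at an unadjusted p under 0.05. Without VAT CD26-CD142+ library 2, 2034 genes were called, 10 mitochondrially encoded and 50 nuclear members among them. The median of the mitochondrially encoded genes stayed between 2.65 and 3.13 in these 5 fits.

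Complex I has 7 mitochondrially encoded subunits, which build its proton-pumping membrane arm. mt-Nd1 was at 4627 and 6338 CPM in SAT library 1 and VAT CD26-CD142+ library 1, and at 663, 795 and 682 CPM in SAT library 2, VAT CD26-CD142+ library 2 and the VAT CD26+CD142+ library. mt-Nd4 was at 1896 and 2510 CPM, against 259, 296 and 276 CPM, in the same order of libraries. The libraries numbered 1 were far above the others for both genes, and the 3 numbered 2 lay close together. The log2 difference by number was 2.97 (SE 0.25) for mt-Nd1 and 3.02 (SE 0.21) for mt-Nd4, each at an edgeR adjusted p of 0.044. mt-Nd2 (2.82), mt-Nd5 (2.63) and mt-Nd6 (2.88) were called at the same adjusted p. mt-Nd6 lies on the opposite strand from the other 12 genes, and the strand setting of the counting is not given in the sources used here, so its reads and those of the opposite strand cannot be told apart. mt-Nd3 had 10.0 and 9.90 CPM against 0.812, 1.08 and 0.495 CPM, a log2 difference of 3.63 (SE 0.44, adjusted p 0.044), the highest of the 12. mt-Nd4l had 3.29 and 2.11 CPM against 0.631, 0.473 and 0.577 CPM and missed the threshold (log2 difference 2.16, SE 0.44, adjusted p 0.0641).

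mt-Cytb, the cytochrome b of complex III, was at 6439 and 8882 CPM in SAT library 1 and VAT CD26-CD142+ library 1, against 927, 1122 and 1002 CPM for SAT library 2, VAT CD26-CD142+ library 2 and the VAT CD26+CD142+ library. Its log2 difference was 2.95 (SE 0.25, adjusted p 0.044). mt-Co1, the catalytic core of complex IV, was at 11331 and 16270 CPM against 2557, 2844 and 2698 CPM. Its log2 difference, 2.38 (SE 0.27, adjusted p 0.044), was the lowest of the 11 called. Its part of the 13 genes' counts was accordingly 37.9% and 38.9% in the libraries numbered 1 and 47.3%, 46.5% and 48.2% in those numbered 2. mt-Co2, which takes up electrons from cytochrome c, was at 64.4 and 109 CPM against 9.83, 9.85 and 9.89 CPM (log2 difference 3.15, SE 0.21, adjusted p 0.044). mt-Co3 (3.12, SE 0.20) and the ATP synthase gene mt-Atp6 (3.01, SE 0.40) were called too. mt-Atp8, the other ATP synthase gene, had 0.433, 1.88, 0.135, 0.086 and 0 CPM across the libraries in the order above and failed the filter.

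**Figure D2:**
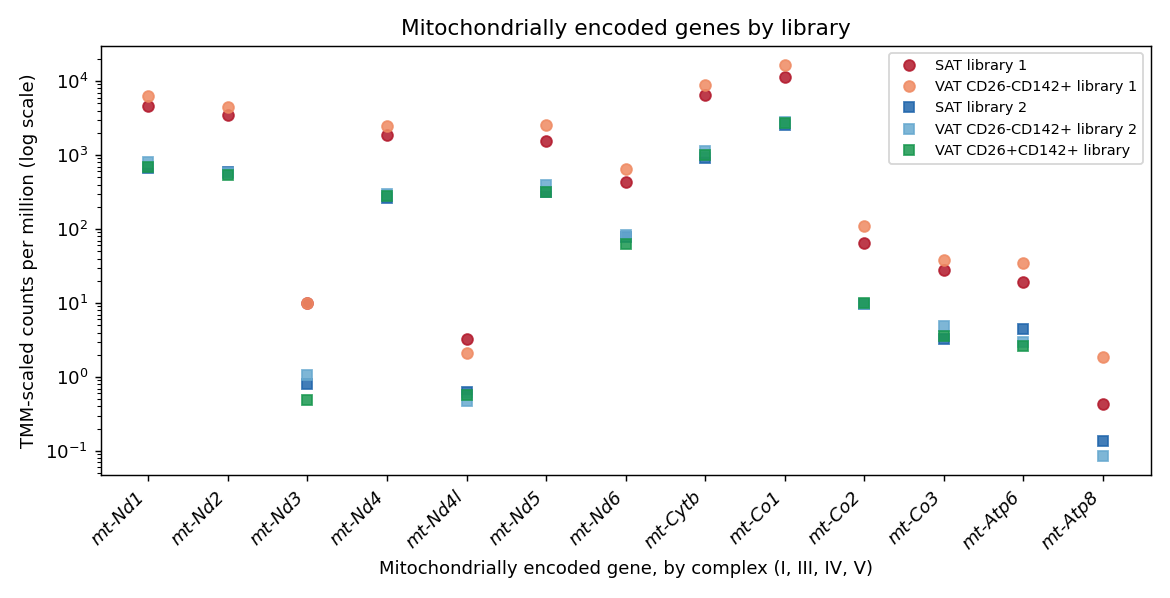
TMM-scaled CPM (log axis) of the 13 mitochondrially encoded genes in each library, grouped by complex. Circles are the libraries numbered 1 and squares those numbered 2. Within each gene both circles lie above all squares. Heights of different genes are not comparable here because CPM is not divided by length, and mt-Atp8 at 0 in the VAT CD26+CD142+ library is not drawn.

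Per length, the mitochondrially encoded genes fell into levels that went with their nuclear copies. The 5 genes of which 99 to 99.9% was matched by a chromosome 1 pseudogene (mt-Co2, mt-Co3, mt-Atp6, mt-Nd3 and mt-Nd4l) had mean TPM (a level per transcript length, scaled to the same total in each library) of 13.6 to 167 over the 5 libraries. mt-Nd4, 63.6% matched, was at 2135 TPM and mt-Co1, 31.3% matched, at 13227 TPM. mt-Nd1, mt-Nd2, mt-Nd5, mt-Nd6 and mt-Cytb, with no such copy among annotated transcripts, were at 1436 to 9046 TPM. mt-Atp8 had no annotated copy either, at 6.93 TPM. On the mitochondrial genome it follows mt-Co2, at bases 7766 to 7969, and overlaps mt-Atp6, which starts at base 7927. How reads in that overlap were counted is not given in the sources used here, so the mt-Atp8 level is uncertain too. Gm28661 held 1456, 2177, 157, 222 and 255 counts in SAT library 1, VAT CD26-CD142+ library 1, SAT library 2, VAT CD26-CD142+ library 2 and the VAT CD26+CD142+ library, so the copy showed the same order by number as mt-Co2. How multi-mapping reads were counted is not given in the sources used here, and the levels of the 5 matched genes are uncertain for that reason. Their log2 differences by number, 2.16 to 3.63, spanned those of the other 7 tested genes, 2.38 to 3.02.

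**Figure D3:**
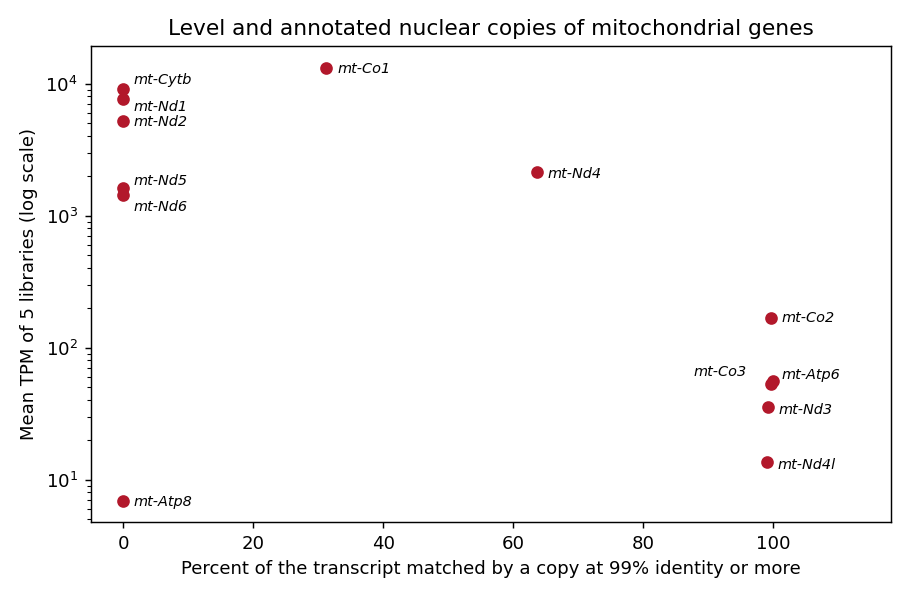
Mean TPM over 5 libraries (log axis) of the 13 mitochondrially encoded genes against the percent of the transcript matched by another annotated transcript at 99% identity or more. The 5 genes at the right, 99 to 99.9% matched, lie at 13.6 to 167 TPM, and the 5 upper genes at 0% lie at 1436 to 9046 TPM.

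Among nuclear genes, complex I accessory subunits held 7 of the 10 highest differences among those called. Of 37 tested genes counted as complex I by symbol, 23 were called higher, with a median log2 difference of 1.01. Ndufa12, an accessory subunit of the peripheral arm, was at 40.3 and 23.3 CPM in SAT library 1 and VAT CD26-CD142+ library 1, against 8.98, 9.76 and 9.52 CPM for SAT library 2, VAT CD26-CD142+ library 2 and the VAT CD26+CD142+ library (log2 difference 1.66, SE 0.25, adjusted p 0.0472). The 3 libraries numbered 2 agree closely, while the 2 numbered 1 lie apart. A pseudogene, Gm15920, matched 402 bases of Ndufa12 at 99.5% identity. It held 137, 350, 153, 205 and 235 counts in the library order above, against 932, 509, 199, 227 and 231 for Ndufa12. Between the libraries numbered 1, the copy ran opposite to the gene. How multi-mapping reads were counted is not given in the sources used here, so the Ndufa12 difference is uncertain. Ndufa5 was at 64.7 and 71.9 CPM against 26.8, 24.3 and 25.3 CPM (1.42, SE 0.12, adjusted p 0.044). Ndufa3 (1.30), Ndufa1 (1.29), Ndufa2 (1.25), Ndufb7 (1.24) and Ndufb9 (1.14), all accessory subunits, were called at adjusted p of 0.044 to 0.0471, and Ndufc2 was called at 1.12. Ndufa2 had the highest mean level of the nuclear complex I genes, 372 TPM, and Ndufb2 the lowest, 3.93 TPM (log2 difference 0.61, adjusted p 0.232).

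Core subunits of complex I, among them those that hold its flavin and iron-sulphur centres, had log2 differences from 0.05 to 1.01. Ndufv1, which binds the flavin, was at 71.8 and 73.7 CPM against 64.1, 64.8 and 64.3 CPM, in the library order above (log2 difference 0.18, SE 0.10, adjusted p 0.304). Ndufs1, the largest iron-sulphur subunit, was at 49.0 and 56.5 CPM against 52.7, 50.4 and 50.4 CPM, and its groups overlapped (0.05, SE 0.12, adjusted p 0.801). Ndufs7 (1.01, SE 0.13) and Ndufv2 (1.00, SE 0.10) were called at an adjusted p of 0.044. Ndufs8 (0.98, adjusted p 0.101) and Ndufs3 (0.77, adjusted p 0.0521) missed the threshold. These core subunits were thus spread from near 0 up to the complex I median.

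Complex II, the only complex with no mitochondrially encoded subunit, was also split. Sdha, its flavoprotein, was at 140 and 166 CPM in SAT library 1 and VAT CD26-CD142+ library 1, against 153, 151 and 163 CPM for the libraries numbered 2, and its groups overlapped (log2 difference -0.01, SE 0.14, adjusted p 0.959). Sdhb, the iron-sulphur subunit, was at 72.1 and 81.2 CPM against 40.7, 48.6 and 51.2 CPM and was called at 0.76 (SE 0.11, adjusted p 0.0454). Of the membrane anchors, Sdhc was called at 0.71 (adjusted p 0.0478) and Sdhd stood at 0.57 (adjusted p 0.0745). Sdhd had the highest mean level of the 4, 166 TPM, and Sdhc the lowest, 70.9 TPM.

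In complex III, 4 of 9 nuclear genes were called higher, with a median of 0.83. Uqcrq, a small membrane subunit, was at 114 and 94.0 CPM against 41.6, 46.5 and 42.9 CPM (log2 difference 1.24, SE 0.14, adjusted p 0.044). The core proteins Uqcrc2 (64.5 and 65.0 CPM against 60, 66.4 and 62.2 CPM) and Uqcrc1 (110 and 117 CPM against 94.2, 110 and 86.8 CPM) stood at 0.05 (adjusted p 0.761) and 0.24 (adjusted p 0.34). Mean levels ran from 77.4 TPM for Uqcrc1 to 292 TPM for Uqcr10.

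In complex IV, 5 of the 14 nuclear genes past the filter were called higher, with a median of 0.83. Cox7c, a small structural subunit, was at 186 and 143 CPM against 68.7, 77.4 and 69.4 CPM (log2 difference 1.17, SE 0.17, adjusted p 0.0452). Cox8a had the highest mean level of all nuclear members, 798 TPM, and missed the threshold at 0.81 (adjusted p 0.072). Cox7a2l, a relative of the Cox7a subunits known for its role in supercomplexes, stood at 0.28 (adjusted p 0.314).

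In ATP synthase, 5 of 17 nuclear genes past the filter were called higher, with a median of 0.74. Atp5k, the small subunit e of the membrane part, was at 48.1 and 50.4 CPM against 12.3, 17.3 and 21.9 CPM (log2 difference 1.62, SE 0.21, adjusted p 0.0442). The subunits of the catalytic head were spread. Atp5a1, its alpha subunit, was at 334 and 350 CPM against 343, 368 and 328 CPM (-0.01, SE 0.17, adjusted p 0.974), and Atp5b, its beta subunit, at 480 and 428 CPM against 441, 433 and 411 CPM (0.06, SE 0.17, adjusted p 0.82). Of the small head subunits, Atp5e, epsilon, was called at 1.08 (SE 0.14, adjusted p 0.0442) and Atp5d, delta, stood at 0.49 (SE 0.15, adjusted p 0.117). Atp5c1, the gamma subunit of the head, stood at 0.20 (adjusted p 0.341). Atp5s, counted here by its symbol alone, stood at 0.07 (adjusted p 0.888). The groups overlapped for Atp5a1, Atp5b and Atp5s, and Atp5a1 had the highest mean level of the complex, 344 TPM. Of the 81 nuclear genes tested, 79 had a positive value and 42 missed the threshold.

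**Figure D4:**
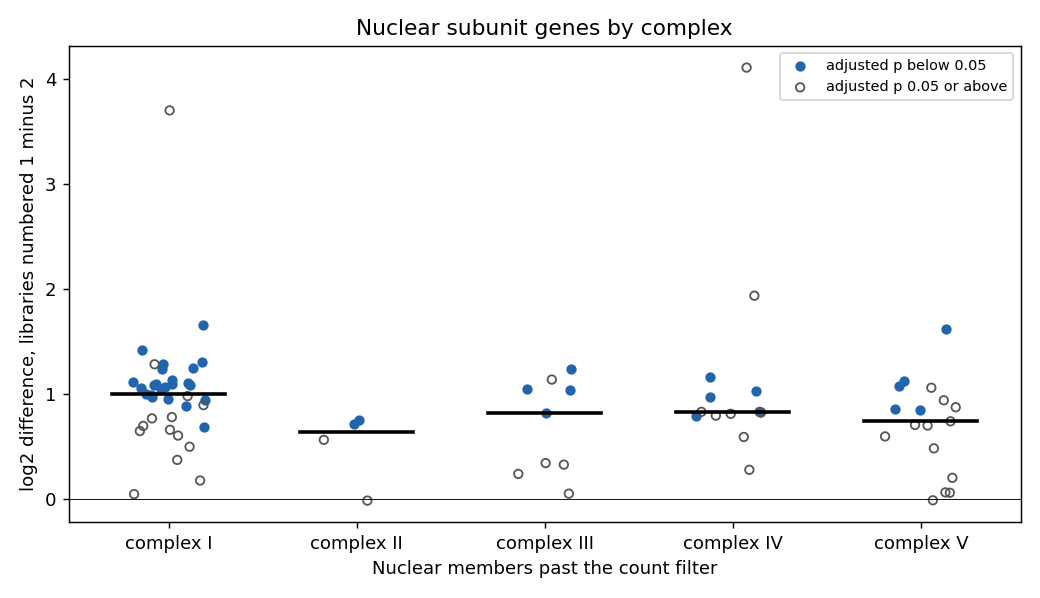
log2 difference of each of the 81 tested nuclear genes between libraries numbered 1 and 2, by complex. Filled points passed the adjusted p threshold of 0.05, open points did not, and bars are medians, from 0.64 in complex II to 1.01 in complex I.

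The difference by number moved with transcript length, and the members are short. Genes were classed by the median spliced length of their coding transcripts (GENCODE release 21). Of the nuclear members under 1000 bases, 33 of 54 were called higher (median 1.04). Of those from 1000 to 2000 bases, 6 of 21 were called (median 0.50), and of those of 2000 bases or more, 0 of 6 (median 0.33). Other tested genes were called higher at 4.42% under 500 bases and 7.63% at 500 to 1000 bases. Their share was 2.57% at 1000 to 2000 bases and 0.66% at 2000 to 4000 bases. Other tested genes showed a trend in the same direction, from a median of 0.50 at 500 to 1000 bases to -0.06 at 2000 to 4000 bases and -0.81 at 8000 bases or more. In the class of 500 to 1000 bases, the 40 nuclear members had a median of 0.96 against 0.50 for 1612 other genes, and in the class of 2000 to 4000 bases the 6 members had 0.33 against -0.06. As a description across genes, which are not independent, Spearman's rho with transcript length was -0.63 over the 81 nuclear members and -0.38 over 15827 other genes.

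With each library's trend on gene length removed, 0 genes were called by edgeR and 3889 had an unadjusted p under 0.05. The median of the mitochondrially encoded genes was then 2.52 and that of the nuclear members 0.58. With the trend on transcript length removed in its place, a choice made after seeing the data, 0 genes were again called, and the medians were 2.51 and 0.46.

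**Figure D5:**
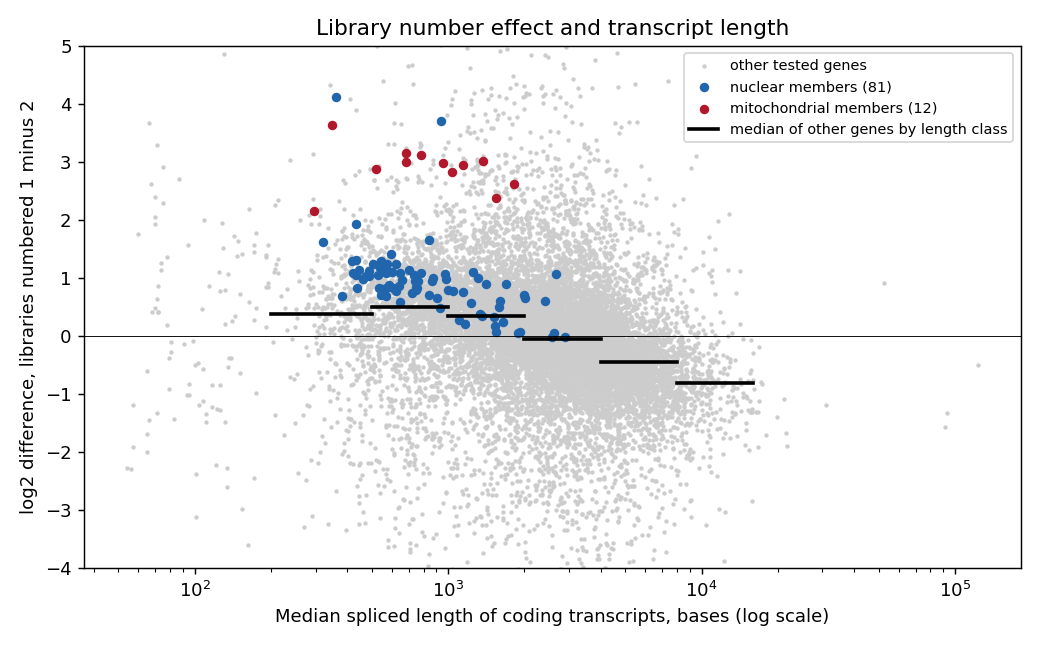
log2 difference between libraries numbered 1 and 2 against the median spliced length of coding transcripts (log axis) for tested genes, with nuclear members in blue, mitochondrially encoded members in red and other genes in grey. Black bars are medians of the other genes by length class, from 0.50 at 500 to 1000 bases to -0.81 at 8000 bases or more. Points outside -4 to 5 are not drawn.

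Within 1 gate, the VAT CD26-CD142+ pair showed the difference as a comparison of 2 libraries with no test. A gene was called here where log2(CPM + 1) differed by a factor of 2 or more and the higher value reached 10 CPM, which 5.74% of tested genes met. Library 1 was higher by that rule for 283 tested genes and lower for 631. Those higher held 10 mitochondrially encoded and 12 nuclear members. The member medians were 2.96 and 0.71 on the log2(CPM + 1) scale. mt-Co1 stood at 5.72 times its level in library 2 (exact conditional 95% interval 5.67 to 5.77, counting error only), and Atp5b at 0.988 times (0.961 to 1.02). In SAT library 1 over SAT library 2, where number and gate both differ, 13.6% of tested genes were called, 1081 as higher and 1079 as lower. Those higher held 10 mitochondrially encoded and 38 nuclear members, and the member medians were 2.58 and 0.98.

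Pairs with the same number gave medians nearer 0. The VAT CD26+CD142+ library over VAT CD26-CD142+ library 2 (4.94% of tested genes called) gave 0 members and medians of -0.14 and -0.03. SAT library 2 over VAT CD26-CD142+ library 2 (9.27%) gave 0 members and medians of -0.17 and -0.11. SAT library 1 over VAT CD26-CD142+ library 1 (5.2%) gave 1 member, Ndufa4l2, and medians of -0.46 for mitochondrially encoded and 0.12 for nuclear members. mt-Co1 in SAT library 1 was at 0.696 times its level in VAT CD26-CD142+ library 1 (interval 0.693 to 0.7), the lower of the 2 libraries numbered 1.

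Between depots, 8 tested genes (0.0503%) were called by edgeR over all gates, and 0 members. Of the 93 members tested, 0 were at an unadjusted p under 0.05 and 0 were called by DESeq2. This fit has no term for library number, so the difference by number entered the spread that depot was tested against. The lack of calls among members therefore cannot show that the depots are alike. The median log2 difference of SAT minus VAT was 0.00 for mitochondrially encoded and 0.16 for nuclear members. Both values turned on single libraries. The mitochondrially encoded median was -1.98 and 0.80 when SAT libraries 1 and 2 were left out in turn, and 1.87 when VAT CD26-CD142+ library 1 was. It was -0.43 without VAT CD26-CD142+ library 2 and -0.46 without the VAT CD26+CD142+ library. The nuclear median was -0.43, 0.58 and 0.52 in the first 3 of these fits. It was 0.03 and 0.02 without VAT CD26-CD142+ library 2 and the VAT CD26+CD142+ library, and -0.01 with library number as a block. Over all tested genes, 1076 were at an unadjusted p under 0.05.

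Between VAT gates, CD26+CD142+ against CD26-CD142+, 254 tested genes (1.6%) were called and 1 member, Ndufa4l2 (log2 difference -3.84, SE 0.75, adjusted p 0.0169). The mitochondrially encoded median was -2.37, with 0 of 12 called by edgeR or DESeq2 and 0 at an unadjusted p under 0.05. It was -0.17 without VAT CD26-CD142+ library 1 and -3.19 without library 2, so the library numbered 1 set its size. The nuclear median was -0.48, and it was -0.05 and -0.85 without the same libraries. The test has 1 residual degree of freedom, from the VAT CD26-CD142+ pair. That pair differs in library number, so the difference by number was the spread of this test. The lack of calls among mitochondrially encoded genes therefore cannot show that the gates are alike. With every library kept and the SAT libraries as 1 group, 0 genes were called. The fits without either library of that pair also took the SAT libraries as 1 group, which gave their only spread. The SAT libraries differ in gate and number, so calls in those fits cannot show dependence on the library left out.

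By title with depot as a term, CD26 status gave 0 called genes (0%) by edgeR, 140 at an unadjusted p under 0.05 and 16 by DESeq2, and a mitochondrially encoded median of 0.01. No member was at an unadjusted p under 0.05 or called by DESeq2. The by-title fit has no term for library number either, so its lack of calls cannot show that the gates are alike. The nuclear median was 0.16. These values also turned on single libraries. The mitochondrially encoded median was -2.38 without either SAT library, which leaves the VAT gates alone. It was 1.31 without VAT CD26-CD142+ library 1, -0.23 without library 2 and 2.63 without the VAT CD26+CD142+ library. The nuclear median was -0.46 and -0.48 without SAT libraries 1 and 2, 0.43 and 0.09 without VAT CD26-CD142+ libraries 1 and 2, and 0.98 without the VAT CD26+CD142+ library. By name edgeR called 95 (0.597%) and 0 members, with 9 mitochondrially encoded and 22 nuclear members at an unadjusted p under 0.05 and medians of -2.52 for mitochondrially encoded and -0.75 for nuclear members. By name all CD26+ libraries are numbered 2, so gate and number cannot be told apart there outside the VAT CD26-CD142+ pair. By title the effect of CD26 status was positive in SAT and negative in VAT for 12 of 12 mitochondrially encoded genes, and the signs were opposite for 6116 of 15920 tested genes. By title the SAT CD26+ library is numbered 1 and the VAT CD26+ library 2. The difference of these effects was called for 1053 tested genes (6.61%), for 0 mitochondrially encoded members (lowest adjusted p 0.154) and for 2 nuclear members, Ndufa4l2 and Cox8b.

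Of the 8 tissue-restricted isoforms, 4 passed the filter and 0 were called by number by edgeR, with 1 at an unadjusted p under 0.05 and 3 called by DESeq2. Of their 7 ubiquitous partners, 4 were called by edgeR. Ndufa4l2, a hypoxia-inducible relative of Ndufa4, was at 43.0 CPM in SAT library 1, 17.0 in VAT CD26-CD142+ library 1, 0.722 in SAT library 2, 6.84 in VAT CD26-CD142+ library 2 and 0.824 CPM in the VAT CD26+CD142+ library. It was thus high in the 3 libraries named CD142 alone and under 1 CPM in both libraries named CD26. Its difference by number was 3.71 (SE 1.46, adjusted p 0.178) and by CD26 name -4.72 (SE 0.74, adjusted p 0.086). Ndufa4 itself was at 111 and 130 CPM against 57.6, 64.8 and 65.3 CPM (log2 difference by number 0.98, adjusted p 0.044). Summed mural markers (5 genes, all detected in every library) were 134 CPM in SAT library 1, 22.1 and 33.7 CPM in VAT CD26-CD142+ libraries 1 and 2, 30.1 CPM in SAT library 2 and 9.48 CPM in the VAT CD26+CD142+ library, and their part in the Ndufa4l2 values was not tested.

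Cox8b, the isoform of Cox8a found in muscle and brown fat, was at 9.52 CPM in SAT library 1 and at 0.917, 0, 0.258 and 0.289 CPM in VAT CD26-CD142+ library 1, SAT library 2, VAT CD26-CD142+ library 2 and the VAT CD26+CD142+ library. SAT library 1 stood alone. Its difference by number missed the threshold (4.11, SE 1.90, adjusted p 0.226). Adipocyte markers (6 genes) summed to 16.9, 9.26, 0.451, 17.8 and 1.03 CPM in that order, with Ucp1 at 0 in the 3 libraries numbered 2, and epithelial markers (5 genes) to 198, 1.15, 3.88, 3.14 and 38.3 CPM, with Csn3 at 0 outside SAT library 1. Their part was not tested. Cox6b2, the testis form of Cox6b1, was at 5.58 and 2.52 CPM against 0.812, 0.731 and 1.32 CPM (1.94, SE 0.59, adjusted p 0.114). Cox7a1, the heart and muscle form of Cox7a2, was at 1.24 to 3.25 CPM in all libraries (0.83, adjusted p 0.265). Cox4i2 reached 1.13 CPM in SAT library 1 and at most 0.344 CPM elsewhere, Cox6a2 reached 0.0865 CPM, and Cox7b2 and Cox8c had 0 counts in every library. These 4, mt-Atp8 and a 2nd row named Atp5o with 0 counts were the 6 members that failed the filter. The partners called higher were Ndufa4, Cox6b1 (1.03), Cox7a2 (0.97) and Cox7b (0.79), while Cox4i1 (0.83, adjusted p 0.0612), Cox6a1 (0.83, adjusted p 0.0694) and Cox8a missed the threshold.

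Genes that serve the chain without being subunits had smaller median differences by number. Of 47 assembly factors tested, 4 were called higher (Ndufaf8 1.37, Cox14 1.16, Uqcc3 1.12, Coa3 1.06), with a list median of 0.41. Of 77 mitochondrial ribosomal protein genes, which translate the mitochondrial messages, 8 were called higher, with a median of 0.62. Of 25 genes of mitochondrial DNA transcription and maintenance, 0 were called by edgeR, 2 by DESeq2, and 6 were at an unadjusted p under 0.05, with a median of 0.17. Tfam, which packages and activates mitochondrial DNA, stood at 0.42 (adjusted p 0.114), and Polrmt, the mitochondrial RNA polymerase, at -0.59 (adjusted p 0.0835). Of 8 nuclear regulators, 0 were called by edgeR, 1 by DESeq2, and 3 were at an unadjusted p under 0.05. The 1 with a positive value was Ppargc1a, at 0.736, 3.03, 0, 2.75 and 0.33 CPM in the library order used for Cox8b. Nrf1 stood at -0.04 (adjusted p 0.873).

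By number, 5.26% of all tested genes were called, 2.18% as higher in the libraries numbered 1. Of the pathways next to the chain, the TCA cycle and glycolysis were near this background. Of 14 TCA cycle genes, 0 were called by edgeR, 1 by DESeq2, and 3 were at an unadjusted p under 0.05. Of 16 glycolysis entries, 2 of them named Aldoa (0.68 and -0.64), 0 were called by edgeR, 4 by DESeq2, and 5 were at an unadjusted p under 0.05. Both medians were 0.16. Of 12 carrier and related genes, 2 were called higher, with a list median of 0.50. Atpif1, the inhibitor of ATP synthase, was called at 1.46 (SE 0.15, adjusted p 0.044). Higd1a, a complex III and IV partner, was called at 0.85 (SE 0.11, adjusted p 0.044). The cytosolic ribosome list, matched by symbol, held 98 tested genes, of which 10 are S6 kinase genes or Rps19bp1 and 5 are named as pseudogenes. Of the other 83, which are ribosomal protein genes, 5 were called higher, with a median of 0.49. Among 4 nuclear retained RNAs, Malat1 was called lower in the libraries numbered 1, at 402 and 537 CPM against 1752, 1631 and 1455 CPM (-1.78, SE 0.26, adjusted p 0.0466). Erythrocyte markers (5 genes, all detected) summed to 8.70 and 15.1 CPM in the libraries numbered 1 and 1.68 to 3.30 CPM in those numbered 2, and Hba-a2 was called at 4.39 (SE 0.61, adjusted p 0.0452). Neither was tested for its part in the subunit differences.

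The difference by number is given for nuclear members with and without each promoter motif, with no test between them. Of the 20 tested members with the NRF1 motif 9 were called higher by number, with a median of 0.87, and of the 47 without it 23, with a median of 0.94. With the YY1 motif 5 of 7 were called (median 0.94), and without it 27 of 60 (median 0.89). With the ETS motif 2 of 5 were called (median 0.86), and without it 30 of 62 (median 0.92). Of the members whose windows are printed above, Ndufs6 (1.09, adjusted p 0.0461) and Atp5h (0.86, adjusted p 0.0459) were called, and Uqcr11 missed the threshold (1.14, adjusted p 0.0776). Of the 9 nuclear members with a transcript elsewhere at 99% identity over 100 bases or more, 4 were called (median 1.06), and of the other 72 tested, 35 (median 0.86). None of the 9, which include Ndufa12 and Cox7c, was matched over more than 90% of its length.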

How the data were processed

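RNA of 5 sorted mouse adipose stem cell populations was poly(A)-selected, reverse transcribed with random hexamers and sequenced, per the labels' protocols. The authors deposited raw gene counts with a gene length per gene. Per the submitters' processing notes, CASAVA, HISAT2 2.0.5, featureCounts 1.5.0-p3 and the mm10 build were used. The strand setting, the annotation release and the treatment of multi-mapping reads are not given in the sources used here.

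From the deposited counts, CPM (TMM-scaled) and TPM (with the deposited gene length) were computed. Genes were tested with edgeR 4.0.16 (R 4.3.3): TMM scaling, filterByExpr with a minimum count of 10 by depot, robust quasi-likelihood F tests, and Benjamini-Hochberg adjustment over all 15920 genes tested at a threshold of 0.05. The filter removed 38612 genes. The SE given is the absolute log2 difference divided by the square root of F. The tests were library number with depot, depot, VAT gate (4 groups by title) and CD26 status with depot. Alternatives were DESeq2 1.42.0, limma-voom 3.58.1, other scaling and filters, mitochondrial genes left out, a loess length offset, library number as a block, and each library left out. The number test and the length offset were tested on simulated data. Copies were found with BLAST 2.17.0 (at least 99% identity over 100 bases).

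Members and lists were chosen with earlier results of these data known. All mitochondrially encoded genes, the 10 highest and 10 lowest nuclear differences per comparison (all called members where 20 or fewer), the highest and lowest expressed member per complex, and the tissue-restricted isoforms with their partners are named. Other named members were chosen after their values were seen. These are the rest of complex II, Ndufv2, Ndufc2, Ndufs3, Ndufs7, Ndufs8, Atp5d, Atp5e, Uqcr11, Ndufs6 and Atp5h. Of the other lists, Tfam, Nrf1, Ppargc1a and Polrmt were chosen in the same way.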

Additional observations from a re-analysis of the deposited data

Results flagged for a closer look

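The effect of CD26 status by title was called as different between SAT and VAT for 2 of 81 nuclear members. This was the test of the difference itself (edgeR, 4 groups, 1 residual degree of freedom, chosen after seeing the data). It called 1053 of 15920 tested genes (6.61%), so nuclear members were called no more often than tested genes at large. In this fit 3 of the 4 groups hold 1 library each, so the spread comes from the VAT CD26-CD142+ pair alone, and the SAT contrast sets 1 library against 1 that also differs in library number. Depot, library number and single libraries cannot be told apart in these values. For Ndufa4l2 the log2 difference of CD26+ minus CD26- was 5.89 in SAT and -3.84 in VAT, a difference of 9.73 (edgeR adjusted p 0.000136). For Cox8b it was 10.77 in SAT and -1.01 in VAT, a difference of 11.78 (adjusted p 0.00449). The SAT value of Cox8b is fitted against a library at 0 and depends on the prior count, so it is no bound. The SAT titles conflict with the library names, and by name the SAT value of Ndufa4l2 has the sign of the VAT value.

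The 2 mitochondrial ribosomal RNAs, which are outside the protein-coding members, held 0.0936% of the counts of SAT library 1. The share was 0.112% for VAT CD26-CD142+ library 1. They took 0.0139% in SAT library 2, 0.0139% in VAT CD26-CD142+ library 2 and 0.0151% in the VAT CD26+CD142+ library. The libraries numbered 1 were again above the others. With no control samples, each share is above the limit that a count of 0 would allow, from 3090 to 24245 counts per library.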

How the results depend on the processing

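The call of 837 genes by library number, with 11 mitochondrially encoded and 39 nuclear members, moved in count in the alternatives run. The sign reversed for none of the 12 mitochondrially encoded genes tested or the 10 highest called nuclear members. Other members were not followed singly. Of the 81 nuclear members, 79 were positive as reported, 81 with upper-quartile scaling and 72 with either length trend removed. DESeq2 called 3535 genes with 61 nuclear members, limma-voom 1279, no filter 1720, a filter of 5 CPM in 2 libraries 1424 and number without depot 1294. With the trend on gene length or transcript length removed, 0 genes were called, 0 mitochondrially encoded and 0 nuclear members. Leaving out 1 library gave 0 to 2034 genes, 0 to 10 mitochondrially encoded and 0 to 50 nuclear members, the high values without VAT CD26-CD142+ library 2. The cause of these shifts was not tested. A fit without 1 library has 1 residual degree of freedom.

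For depot (8 genes), DESeq2 called 465, limma-voom 0, no filter 70, gene length removed 4 and transcript length removed 5, and leaving out a library gave 0 to 17. For the VAT gate (254), upper-quartile scaling called 410, no filter 491 (7 mitochondrially encoded members lower), SAT libraries as 1 group 0, and leaving out a library 0 to 383. For CD26 status by title (0 genes by edgeR), DESeq2 called 16, the status by name 95, by name with transcript length removed 248, and leaving out a library gave 0 to 522.

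The library number served as a replicate block for depot, although the labels do not say that it pairs libraries. With the block 5 genes were called, and 4 with the length trend removed too, with 0 members, and the mitochondrially encoded median was -0.27. CD26 status by title and by name with the block gave 0 genes each, and by name the mitochondrially encoded median was -0.05. Deviations of same-numbered libraries from depot means correlated at 0.66, 0.02 and 0.65, fewer than 3 separate pairs. The VAT pair gave 6 nuclear members with a pseudocount of 5 CPM and 3 with length removed (12 as reported), and the SAT pair 10 with length removed (38). Per kilobase, the mitochondrially encoded share was 6.33% for SAT library 1 and 9.42% for VAT CD26-CD142+ library 1, against 1.43%, 1.57% and 1.60% in SAT library 2, VAT CD26-CD142+ library 2 and the VAT CD26+CD142+ library. The nuclear share was 1.5% and 1.42%, against 0.978%, 1.04% and 1.11%, in the same order. Depth limits the genes near 1 CPM, such as mt-Nd4l, mt-Atp8, Cox4i2 and Cox6b2.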
